A study of Mus musculus with 32 samples.

Results

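Steroid hormones act on skin through nuclear receptors, and 7 genes of this system were followed in mouse epidermis after acute UV exposure. They were Esr1 and Esr2, which encode the oestrogen receptors alpha and beta, Nr3c1, the glucocorticoid receptor, Nr3c2, the mineralocorticoid receptor, Hsd11b1 and Hsd11b2, the enzymes that regenerate and inactivate glucocorticoid inside cells, and Tsc22d3, a leucine zipper protein induced by glucocorticoid. The members were matched by symbol to 7 of the 55401 gene identifiers in the count tables. The glucocorticoid and mineralocorticoid receptors rest in the cytoplasm with heat shock proteins until a ligand binds, then move to the nucleus and regulate genes. Keratinocytes respond to circulating glucocorticoid, can activate or inactivate it locally, and glucocorticoids are widely used to damp inflammation in skin.

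Each of the 32 libraries came from the epidermis of 1 mouse, in 8 groups of 4 mice defined by sex, genotype and treatment. The mice were wild type (WT) or littermates deficient for the nuclear receptor gene Ppard (PPARD-/-, called KO below), all on the hairless mixed SKH-1/SV129/BL6/J background and were 10 to 14 weeks old. UV mice were sampled 24 h after a single dose of 120 mJ/cm2 to the back, and Control mice received no UV. The libraries held 22919428 to 40653581 reads on genes (median 27600229), and values are counts relative to library size (cpm), scaled between libraries.

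Ppard was still read in every KO mouse. Its level was 79.8 ± 6.87 cpm in KO Control epidermis against 95.5 ± 6.08 cpm in WT Control epidermis (SD, n = 8 each), and 210 ± 25.7 against 282 ± 24.7 cpm after UV. The difference was -0.26 on the log2 scale without UV (adjusted P = 0.156, edgeR quasi-likelihood test) and -0.42 after UV (adjusted P = 0.00114). The deleted part of the gene was not given in the sources used here, so a count over the whole gene neither verifies nor contradicts the genotype labels.

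Keratinocyte markers dominated the libraries, and markers of deeper tissue varied between mice. The 8 dermal fibroblast markers summed to 8.97 to 101 cpm in 31 mice and to 2035 cpm in the remaining one, the KO female UV mouse 54F, and all of them were read except Mfap5, which was at 0 in the WT UV males. The 6 skeletal muscle markers ranged from 3.72 to 2661 cpm and exceeded 1000 cpm in 9 mice, of which 38M, 59F, 58M, 52F and 54F were UV mice. Because several members had their highest UV values in these libraries, results are also given without mouse 54F and, as an alternative added after seeing the data, without all 9 mice. A lower level in such bulk tissue can mean fewer cells of a type or less RNA per cell, which cannot be told apart. Cell markers shifted with UV in WT mice, where summed suprabasal keratinocyte markers went from 62160 to 72700 down to 9020 to 21870 cpm, T cell markers from 113 to 223 down to 27.1 to 83.9 cpm, Langerhans cell markers from 690 to 1136 down to 389 to 506 cpm, and myeloid markers from 80.9 to 219 up to 708 to 1599 cpm. The part of these shifts in the member changes was not tested.

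Per kilobase of exon, the members fell into an abundant pair and 5 scarce genes. In the 16 Control mice Nr3c1 stood at 9.24 cpm per kb (range 7.82 to 11.9) and Tsc22d3 at 8.58 (5.52 to 11.1), so their ranges overlapped. Esr2 followed at 0.341 (0.0433 to 0.979), Esr1 at 0.244 (0.0322 to 0.460) and Hsd11b1 at 0.170 (0.0601 to 0.315), again with overlapping ranges. Nr3c2 averaged 0.0357 (0.00414 to 0.0916) and Hsd11b2 0.00861 (0 to 0.0444) cpm per kb, which also overlapped. The abundant pair did not overlap with the scarce genes in any Control mouse.

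In WT epidermis, 5 of the 6 members that could be tested fell after UV exposure, and none rose. Genes were tested where at least 1 mouse reached 1 cpm, which Hsd11b2 never did. Esr2 reached it in Control mice alone, and Hsd11b1 in Control mice and the KO UV mouse 54F, so this filter favoured falls for both. Tsc22d3, Esr1, Esr2, Hsd11b1 and Nr3c1 fell, by between 1.19-fold and 9-fold, and Nr3c2 did not pass the edgeR test, though it passed with limma (-1.43, adjusted P = 0.0485). Across all 15546 genes tested, 36.5% fell and 34.5% rose at an adjusted P value under 0.05, so a fall of this kind was common. Every WT UV mouse lay below every WT Control mouse for Esr1 and Tsc22d3, 2 of the 6 members, against 22.1% of all genes (21.3% of all genes lay wholly above).

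In KO epidermis, 2 of the 6 members, Esr2 and Tsc22d3, fell and none rose, against 33.5% of all genes that fell and 37.3% that rose. Without mouse 54F the count was 4 of 5, with Esr1 and Hsd11b1 added and Nr3c2 no longer tested. It was also 4 without the 9 muscle-rich mice and 4 of 6 with limma, which added Esr1 and Hsd11b1. The shares of all genes above are from the edgeR fit with all mice, and those of these other fits are not given here. None of the members was wholly lower in KO UV mice than in KO Control mice, against 16.5% of all genes (18.6% wholly above). Leaving out 54F made this true of Tsc22d3. The WT and KO comparisons share no mice.

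**Figure D1:**
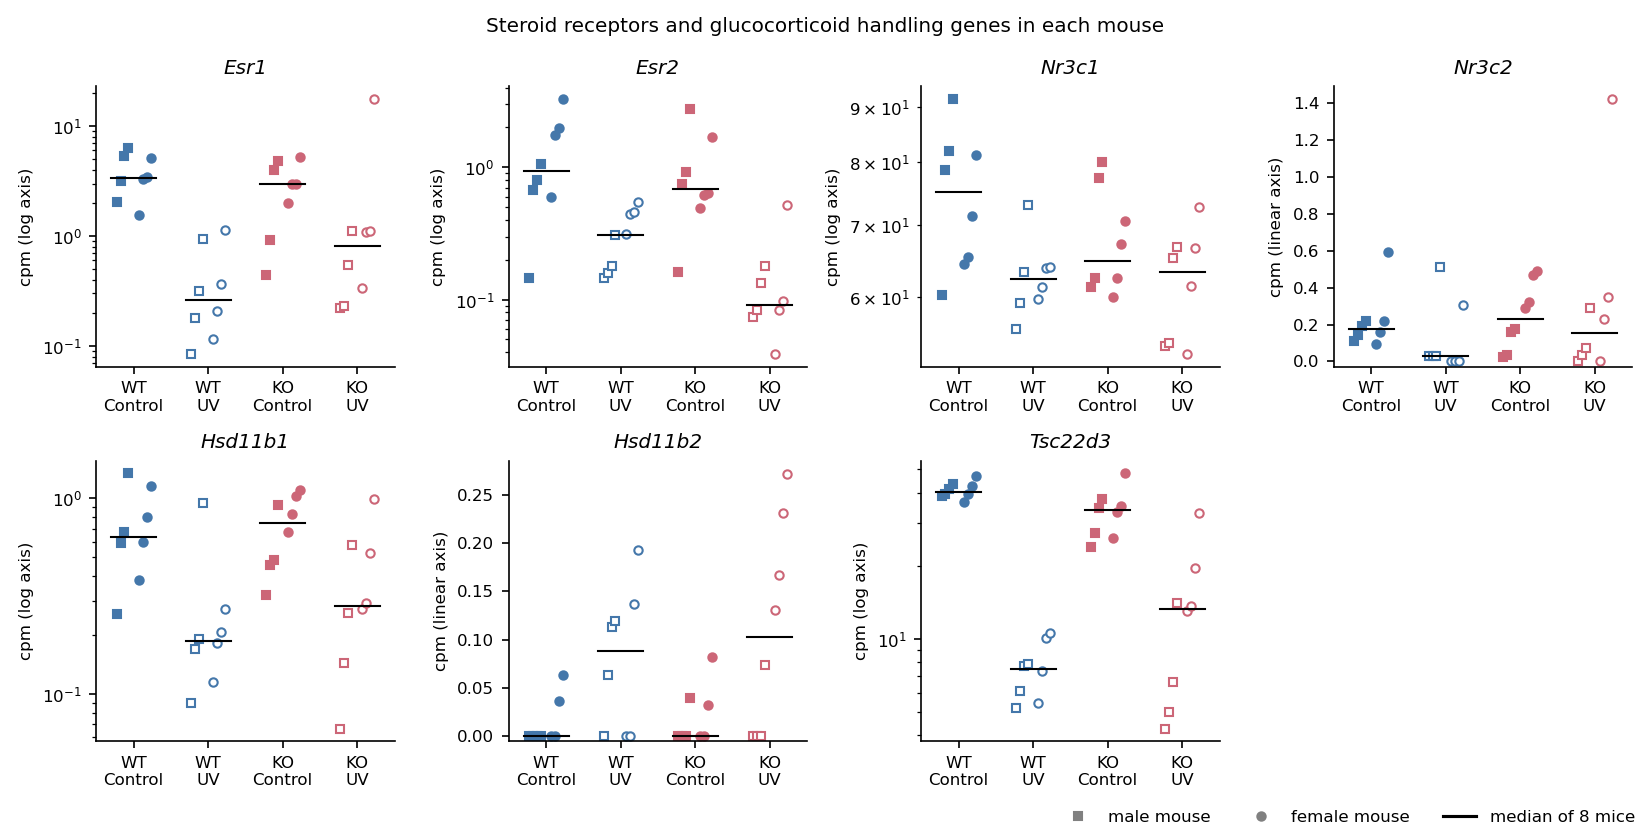
Level of the 7 genes in each of the 32 mice, in cpm (log axes, and linear axes for Nr3c2 and Hsd11b2, which had zeros). Squares are males, circles females, filled points Control, open points UV, blue WT, red KO, and the line is the median of 8 mice; the open red circle at 17.7 cpm in the Esr1 panel is mouse 54F.

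The fall of Tsc22d3, the glucocorticoid-induced leucine zipper gene (chrX:140539528-140600659, minus strand, GRCm38), had the lowest P value among the members in both genotypes. WT Control males read 39.0, 39.5, 41.5 and 43.6 cpm and WT Control females 36.6, 39.5, 42.8 and 47.0 cpm. After UV, WT males read 5.19, 6.11, 7.70 and 7.85 cpm and WT females 5.45, 7.35, 10.1 and 10.5 cpm. The means were 41.2 ± 3.25 and 7.53 ± 1.97 cpm (SD, n = 8 each), a log2 fold change of -2.46 (SE 0.22, adjusted P = 9.38e-11, edgeR quasi-likelihood test).

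The KO mice showed a wider spread of Tsc22d3 after UV. KO Control males read 23.9, 27.3, 34.6 and 37.7 cpm and KO Control females 26.0, 33.3, 35.4 and 48.1 cpm. KO UV males read 4.26, 4.99, 6.61 and 14.1 cpm. KO UV females read 13.0, 13.6, 19.6 and 33.1 cpm, so only the highest male reached the female range, and 54F, the highest female, lay inside the KO Control range. The change in KO mice was -1.45 on the log2 scale (SE 0.213, adjusted P = 8.35e-07), and -1.62 without 54F.

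Tsc22d3 was the one member with a called sex difference, and the call depended on single mice. After UV, the 8 females averaged 14.1 ± 8.80 cpm and the 8 males 7.10 ± 3.10 cpm, with overlapping ranges, and the female excess was 0.86 on the log2 scale (SE 0.213, adjusted P = 0.0298). It was 0.68 without 54F (adjusted P = 0.0848) and 0.78 without the 9 muscle-rich mice (adjusted P = 0.0509), and leaving out any of 32M, 59F, 59M, 61M or 77F also ended the call. Cell markers also differed between the sexes in KO UV mice, where the females had 72.1 to 96.2 cpm of T cell markers against 44.5 to 68.8 in the males, 565 to 947 against 425 to 517 cpm of Langerhans cell markers and 13.4 to 56.9 against 1.81 to 6.38 cpm of endothelial markers. Suprabasal keratinocyte markers were lower in the females, at a median of 8031 cpm against 22180, with overlapping ranges (5352 to 15600 against 14410 to 26280 cpm). In WT UV mice the ranges of all these lists overlapped between the sexes. The part of these markers in the Tsc22d3 difference was not tested. Without UV the difference was 0.11 (adjusted P = 0.777). The sex-by-UV interaction was 0.75 (95% interval 0.14 to 1.36, adjusted P = 0.631).

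RefSeq lists promoter windows (250 bases before to 50 after a start site) for 5 members and 3 of them for Tsc22d3, whose transcripts from all starts were summed in 1 count. They are shown because Tsc22d3 is the textbook target of the glucocorticoid receptor, with the 6-base core of the glucocorticoid receptor's binding motif, AGAACA, in capitals where it occurs. Both strands were searched, and in the window that holds it the core reads as its reverse complement, TGTTCT.
Tsc22d3 chrX:140600473-140600772, minus strand: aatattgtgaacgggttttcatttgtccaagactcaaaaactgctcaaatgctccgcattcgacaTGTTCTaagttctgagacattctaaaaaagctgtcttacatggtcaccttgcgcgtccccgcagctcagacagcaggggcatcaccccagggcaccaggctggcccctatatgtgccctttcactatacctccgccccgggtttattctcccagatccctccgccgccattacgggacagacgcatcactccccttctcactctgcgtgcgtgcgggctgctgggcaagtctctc
Tsc22d3 chrX:140548522-140548821, minus strand: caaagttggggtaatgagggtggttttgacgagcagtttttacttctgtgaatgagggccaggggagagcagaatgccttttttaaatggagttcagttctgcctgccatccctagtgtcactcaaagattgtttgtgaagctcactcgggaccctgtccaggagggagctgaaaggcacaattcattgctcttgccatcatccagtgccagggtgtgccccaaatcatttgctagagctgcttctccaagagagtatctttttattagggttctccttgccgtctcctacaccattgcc
Tsc22d3 chrX:140542619-140542918, minus strand: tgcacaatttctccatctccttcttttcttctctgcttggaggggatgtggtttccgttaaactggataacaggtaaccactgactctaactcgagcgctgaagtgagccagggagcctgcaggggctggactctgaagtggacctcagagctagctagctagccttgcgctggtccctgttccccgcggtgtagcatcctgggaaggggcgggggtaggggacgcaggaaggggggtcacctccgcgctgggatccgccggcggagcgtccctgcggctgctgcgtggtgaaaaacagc
The core occurred once, in the window of the start farthest upstream, and in none of the windows of Esr1, Esr2, Hsd11b1 and Nr3c2. On either strand it was found in 19% of all 32851 windows, so the match is a description only. The full palindrome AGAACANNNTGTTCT (0.00913% of windows), the oestrogen receptor core AGGTCA (16.3%) and its palindrome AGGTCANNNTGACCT (0.0213%) occurred in none of the 8 member windows. Each palindrome contains its own core.

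The oestrogen receptor gene Esr1 (chr10:4611593-5005614, plus strand, GRCm38) showed the largest fold change of the members in WT epidermis. WT Control males read 2.03, 3.14, 5.33 and 6.28 cpm and WT Control females 1.56, 3.29, 3.45 and 5.11 cpm. WT UV males read 0.0845, 0.180, 0.317 and 0.945 cpm and WT UV females 0.116, 0.207, 0.363 and 1.13 cpm, all below the lowest Control mouse. The log2 fold change was -3.17 (SE 0.695, adjusted P = 0.000204, edgeR), 9-fold, with only 3 to 33 reads per UV mouse.

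In KO epidermis, Esr1 did not pass the test with all mice included. KO Control males read 0.440, 0.919, 3.99 and 4.78 cpm and KO Control females 1.99, 2.94, 2.98 and 5.18 cpm. KO UV males read 0.222, 0.233, 0.541 and 1.12 cpm and KO UV females 0.334, 1.09, 1.11 and 17.7 cpm. In these mice the log2 fold change was -0.82 (95% interval -2.13 to 0.49, adjusted P = 0.256), and -2.09 without 54F (adjusted P = 0.00135). Mouse 54F was the library with 2035 cpm of dermal fibroblast markers, whose part in its Esr1 level was not tested. In WT UV mice, the highest Esr1 value of each sex, 0.945 cpm in 38M and 1.13 cpm in 59F, came from the libraries with 2260 and 1644 cpm of muscle markers, and the WT change without all 9 such mice was -4.28.

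**Figure D2:**
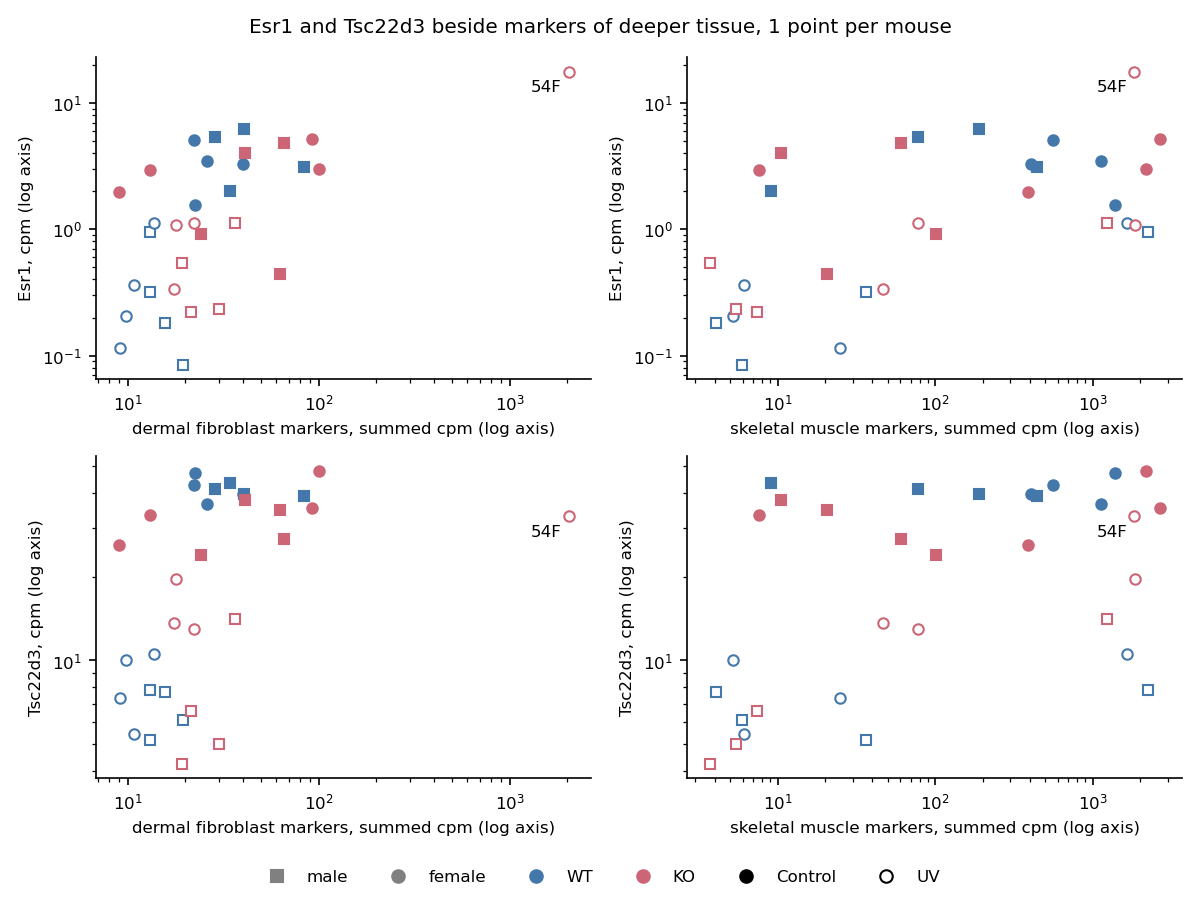
Esr1 (top) and Tsc22d3 (bottom) in cpm against the summed cpm of 8 dermal fibroblast markers (left) and 6 skeletal muscle markers (right), 1 point per mouse on log axes. Squares are males, circles females, blue WT, red KO, filled Control and open UV; mouse 54F lies alone at 2035 cpm of fibroblast markers with 17.7 cpm of Esr1 and 33.1 cpm of Tsc22d3.

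Esr2, the second oestrogen receptor gene (chr12:76120419-76177259, minus strand, GRCm38), fell in both genotypes and was scarce throughout. The 6 mice that reached 1 cpm before scaling were all Control mice, so Esr2 entered the test through the side where it was higher. WT Control males read 0.146, 0.676, 0.797 and 1.07 cpm and WT Control females 0.595, 1.75, 2.00 and 3.297 cpm. WT UV males read 0.145, 0.158, 0.180 and 0.310 cpm and WT UV females 0.311, 0.444, 0.462 and 0.545 cpm. Only the lowest WT Control male fell inside the UV range. The log2 fold change was -1.92 (SE 0.5, adjusted P = 0.00123).

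The fall of Esr2 in KO mice came with fewer reads. KO Control males read 0.161, 0.744, 0.919 and 2.77 cpm and KO Control females 0.497, 0.612, 0.640 and 1.69 cpm. KO UV males read 0.0738, 0.0828, 0.133 and 0.180 cpm and KO UV females 0.0389, 0.0835, 0.0984 and 0.522 cpm, the last again 54F. This gave a log2 fold change of -2.68 (SE 0.529, adjusted P = 6.06e-05), from 1 to 18 reads per UV mouse. The WT and KO changes differed by -0.76 on the log2 scale, with a 95% interval from -2.20 to 0.69.

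Both corticosteroid receptor genes moved little or could not be resolved. Nr3c1, the glucocorticoid receptor gene (chr18:39410545-39519421, minus strand, GRCm38), had 1273 to 2887 reads in every mouse. In WT mice it ranged from 60.2 through a median of 75.1 to 91.6 cpm without UV and from 56.01 through 62.3 to 73.01 cpm after UV. The ranges overlapped, and the log2 fold change was -0.25 (SE 0.0832, adjusted P = 0.00953), a 1.19-fold fall. Without the WT Control mouse 61F it was -0.17 (adjusted P = 0.0732). In KO mice the values ran from 60.05 through 64.8 to 79.9 cpm without UV and from 53.1 through 63.3 to 72.7 cpm after UV, a log2 fold change of -0.13 (95% interval -0.30 to 0.04, adjusted P = 0.165), and -0.20 without the KO Control mouse 52M, past the threshold (adjusted P = 0.036).

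Nr3c2, the mineralocorticoid receptor gene (chr8:76899442-77245012, plus strand, GRCm38), was read 0 to 16 times in every mouse but 54F, which had 49 reads. It entered the test through that mouse alone, at 1.54 cpm before scaling between libraries. WT Control mice ranged from 0.0952 through 0.175 to 0.593 cpm and WT UV mice from 0 through 0.0291 to 0.509 cpm, with the 2 highest UV values, 0.509 and 0.307 cpm, in the muscle-rich mice 38M and 59F. The log2 fold change was -0.96 in WT mice (95% interval -2.64 to 0.73, adjusted P = 0.305) and 0.20 in KO mice (95% interval -1.50 to 1.89, adjusted P = 0.842). Leaving out 59F moved the WT value to -3.04 (adjusted P = 0.0163), and leaving out 38M also brought it past the threshold (adjusted P = 0.0413), as did limma with all mice (-1.43, adjusted P = 0.0485). One exon of Nr3c2 overlaps the antisense gene Gm10649, which had 0 to 3 reads per mouse.

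Of the enzymes, Hsd11b1, which regenerates active glucocorticoid from its inert form (chr1:193221634-193264075, minus strand, GRCm38), fell in WT epidermis. It reached 1 cpm before scaling in 5 mice, all Control mice except the KO UV mouse 54F, so among WT mice it passed the filter through Control mice alone. WT Control males read 0.255, 0.589, 0.676 and 1.34 cpm and WT Control females 0.381, 0.595, 0.803 and 1.15 cpm. WT UV males read 0.0898, 0.169, 0.190 and 0.945 cpm and WT UV females 0.116, 0.182, 0.207 and 0.273 cpm. Apart from 38M and 59F, the UV mice lay below all Control mice. The log2 fold change was -1.47 (SE 0.456, adjusted P = 0.00551).

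In KO mice, Hsd11b1 ranged from 0.319 through 0.750 to 1.10 cpm without UV and from 0.0665 through 0.282 to 0.985 cpm after UV. This was a log2 fold change of -0.92 (95% interval -1.84 to -0.000276, adjusted P = 0.0686). It passed the threshold without 54F (-1.16, adjusted P = 0.0263), without 58M (-1.32, adjusted P = 0.0125), without the WT mouse 38M (-0.92) and without the 9 muscle-rich mice (-1.43, adjusted P = 0.0112). The highest KO UV values were those of 54F and 58M, both among the muscle-rich mice.

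Hsd11b2, which inactivates glucocorticoid and so guards the mineralocorticoid receptor (chr8:105518755-105523988, plus strand, GRCm38), was close to undetected. The 16 Control libraries held 7 reads in all, with 0 in each WT Control male and at most 2 in any mouse. The 16 UV libraries held 44 reads. WT UV males had 0, 2, 4 and 4 reads, WT UV females 0, 0, 4 and 5, KO UV males 0, 0, 0 and 2, and KO UV females 4, 4, 7 and 8. When genes with low counts were kept, the log2 fold change was 2.85 in WT mice (SE 0.978, adjusted P = 0.0194) and 1.67 in KO mice (SE 1.04, adjusted P = 0.232), both resting on these few reads. A fitted fold at this depth depends on the small count added before taking logs.

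**Figure D3:**
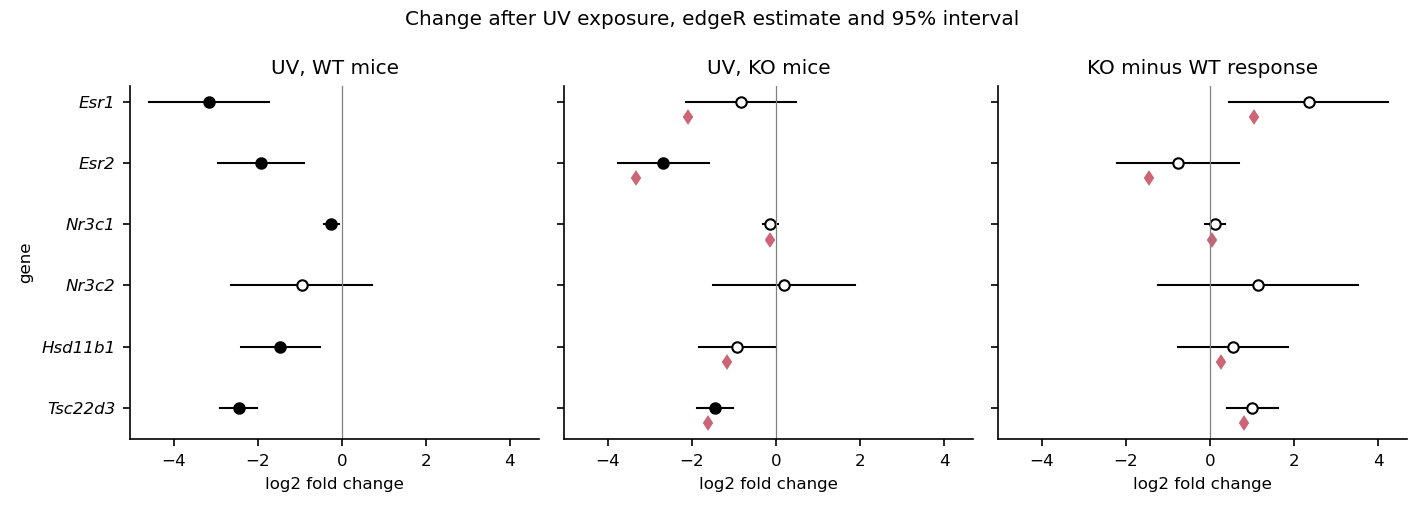
Log2 fold change after UV in WT mice (left) and KO mice (middle) and the difference between them (right) for the 6 genes tested, with 95% intervals. Filled points passed an adjusted P value of 0.05, and red diamonds in the middle and right panels are the estimates without mouse 54F, such as -2.09 against -0.82 for Esr1 in KO mice.

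Within each sex and genotype the falls were spread unevenly. In WT males 4 members fell (Tsc22d3, Esr1, Esr2 and Nr3c1) against 31.1% of all genes, and in WT females 4 (Tsc22d3, Esr1, Esr2 and Hsd11b1) against 31.1%. In KO males 3 fell (Tsc22d3, Esr1 and Esr2) against 30.9% of all genes, and in KO females 2 (Tsc22d3 and Esr2) against 26.7%. Tsc22d3 fell by 2.61, 2.31, 2.05 and 0.85 on the log2 scale in these groups in turn. Each split rests on 4 mice against 4, and leaving out single mice moved the count from 2 to 4 in WT males and from 0 to 3 in KO females.

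The genotype comparison asked whether loss of Ppard altered these genes, and no member passed the test. Without UV, 0 of 6 members differed (0 at an unadjusted P under 0.05, and 0 by DESeq2 or limma), against 0.206% of all genes. Of all 15546 genes, 1324 had an unadjusted P under 0.05, and DESeq2 called 78. The lowest adjusted P value of a member was 0.703, for Nr3c1. After UV, 0 of 6 differed by edgeR against 3.31% of all genes, and 0 by limma, which called 260 genes. An unadjusted P under 0.05 was reached by 3121 of all 15546 genes and 2 members, and DESeq2 called 1116 genes and 2 members.

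These were Esr1 and Tsc22d3, which read higher in KO than in WT mice after UV. Tsc22d3 averaged 13.7 ± 9.46 cpm in KO UV mice against 7.53 ± 1.97 cpm in WT UV mice (log2 difference 0.70, 95% interval 0.26 to 1.14, adjusted P = 0.0632). The difference was 0.51 without 54F and 0.25 without the 9 muscle-rich mice (adjusted P = 0.174 and 0.482). Leaving out 59M, 66F or 74F brought it past the threshold (0.79, 0.77 and 0.73). Esr1 differed by 1.97 (adjusted P = 0.102), and by 0.67 without 54F.

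For the genotype-by-UV interaction, 0 of 6 members passed the edgeR test against 0.765% of all genes, and 0 passed with limma. An unadjusted P under 0.05 was reached by 3042 genes and 2 members, and DESeq2 called 841 genes and 1 member. The log2 fold change of Tsc22d3 was less negative in KO than in WT mice by 1.01 on the log2 scale (95% interval 0.40 to 1.62, adjusted P = 0.0844), by 0.80 without 54F and by 1.09 without 59M, which passed (adjusted P = 0.0454). The corresponding value for Esr1 was 2.35 (95% interval 0.45 to 4.25, adjusted P = 0.165), and 1.04 without 54F.

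Sex differences among the members were few. Without UV, 0 of 6 differed by edgeR (0 at an unadjusted P under 0.05, 0 by DESeq2 and 0 by limma), against 6.86% of all genes. An unadjusted P under 0.05 was reached by 3898 genes, and DESeq2 called 1676 and limma 1051. After UV, 1 of 6 did, Tsc22d3 as described, against 3.03% of all genes. The sex-by-UV interaction was called for 0 members and for 0% of all genes by edgeR, with 1 member and 1091 genes at an unadjusted P under 0.05. DESeq2 called 22 genes and limma 2, none of them a member. For Esr1 the log2 fold change after UV was less negative in females than in males by 1.76 (95% interval -0.13 to 3.65), and by 0.46 without 54F.

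Among genes listed around the supply of glucocorticoid, the called changes after UV were rises, except for that of Cyp17a1. Of 16 listed genes of glucocorticoid supply, 6 were tested, of which 3 rose and 1 fell in WT mice, and 4 rose and 1 fell in KO mice. Of all genes, 34.5% rose and 36.5% fell in WT mice, and 37.3% rose and 33.5% fell in KO mice. The UV counts of every list below stand beside these same shares, so called changes in both directions were common. H6pd, which makes the cofactor that Hsd11b1 needs to act as a reductase, rose from 2.04 ± 0.71 to 25.3 ± 4.62 cpm in WT mice (log2 fold change 3.63, adjusted P = 1.01e-11) and by 3.35 in KO mice. Abcb1b and Abcb1a, pumps that export steroids and drugs from cells, rose by 2.19 and 1.74 in WT mice. Cyp17a1, a steroid hydroxylase, fell from 54.6 ± 13.5 to 11.3 ± 1.35 cpm (-2.28, adjusted P = 1.24e-12). The median log2 fold change of the 6 genes was 0.89 in WT mice, against -0.01 over all genes.

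Other steroid receptors were mixed, with 1 of 5 tested genes up and 2 down in WT mice and 1 up and 3 down in KO mice, from a list of 8. The membrane progesterone receptor components moved apart, since Pgrmc1 rose (1.31) and Pgrmc2 fell (-1.56) in WT mice with no overlap between UV and Control. Without UV, Pgrmc2 was lower in females by 0.27 on the log2 scale (adjusted P = 0.0324). This call ended without the 9 muscle-rich mice (adjusted P = 0.174), with no filter (0.131), with filterByExpr, edgeR's own filter on low counts (0.0718), and in 13 of 32 fits that left out 1 mouse.

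The 21 genes listed as glucocorticoid receptor targets did not move as one. In WT mice 11 rose, 5 fell and 5 did not pass the test, with a median log2 fold change of 0.44 against -0.01 over all genes. In KO mice 11 rose and 4 fell, with a median of 0.56 against 0.09. The largest rises in WT mice among genes whose UV and Control mice did not overlap were of Rgs2, a brake on G-protein signalling (3.07), Angptl4, an inhibitor of lipoprotein lipase and also a target of PPAR receptors (2.77), and Errfi1, a feedback inhibitor of EGFR (1.32). The largest falls, again without overlap, were of Zbtb16, a zinc finger repressor (-2.83), Fkbp5, an immunophilin that lowers the receptor's affinity for ligand (-2.02), and Klf9, a Krüppel-like factor (-1.57). Tsc22d3 itself, which is a member and not on the list, fell by more than Fkbp5 and by less than Zbtb16.

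**Figure D4:**
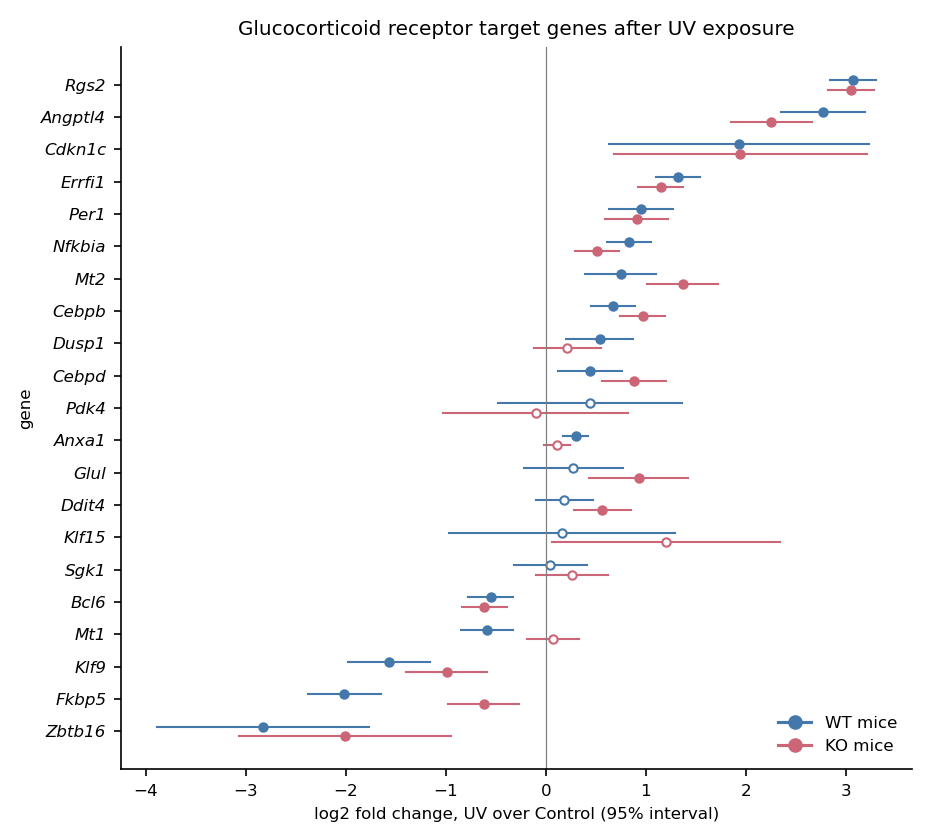
Log2 fold change after UV, with 95% intervals, for 21 glucocorticoid receptor targets in WT mice (blue) and KO mice (red), ordered by the WT value. Filled points passed an adjusted P value of 0.05; Rgs2 (3.07) and Zbtb16 (-2.83) mark the ends of the WT order; Fkbp5 was -2.02 in WT and -0.62 in KO mice.

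Fkbp5 differed between the genotypes before any UV. It ranged from 16.2 through 24.3 to 31.8 cpm in WT Control mice and from 8.74 through 10.5 to 13.9 cpm in KO Control mice, so the groups did not overlap. The log2 difference was -1.20 (SE 0.174, adjusted P = 0.00043), and -1.19 without the 9 muscle-rich mice (adjusted P = 0.0352). After UV the means were 6.04 ± 0.824 cpm in WT and 6.92 ± 3.01 cpm in KO mice. Its fall was smaller in KO mice, with an interaction of 1.39 (SE 0.245, adjusted P = 0.00639), which was 1.45 without the muscle-rich mice (adjusted P = 0.0611). Whether either difference follows from the loss of Ppard itself was not tested. On the mixed background of these mice, DNA inherited together with the altered Ppard gene cannot be told apart from that loss.

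**Figure D5:**
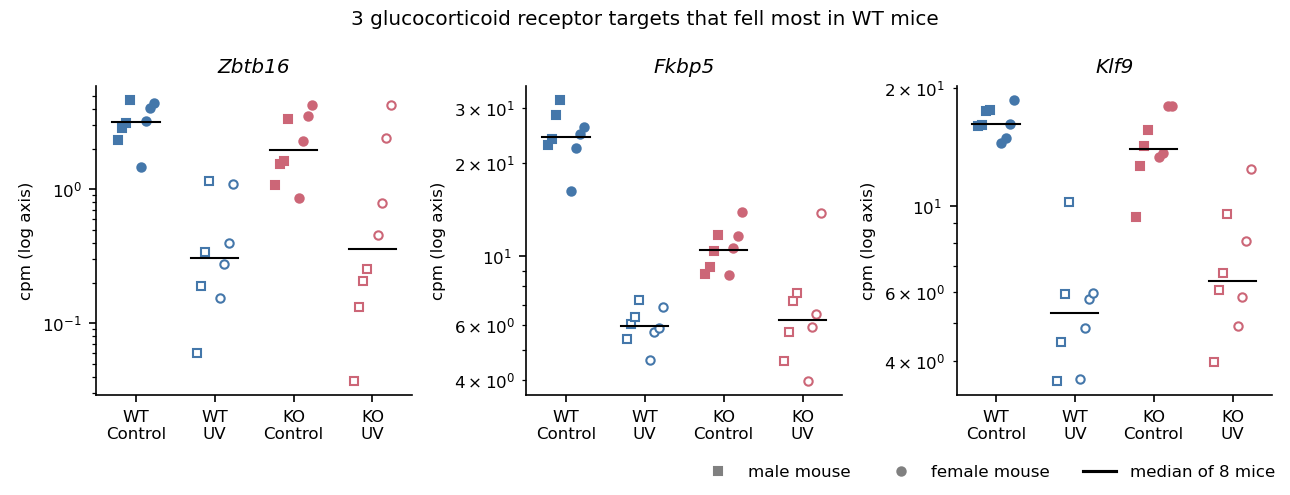
Level of Zbtb16, Fkbp5 and Klf9 in each mouse in cpm on log axes, with squares for males, circles for females, filled points for Control and open points for UV, and the median of 8 mice as a line. In the Fkbp5 panel the WT Control mice (16.2 to 31.8 cpm) lie above all KO Control mice (8.74 to 13.9 cpm).

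Between sexes, 5 of the 21 receptor targets were called without UV, against 6.86% of all genes, and 1 after UV, against 3.03%. Between genotypes 2 were called without UV, Fkbp5 and Angptl4, against 0.206% of all genes, and 1 after UV, against 3.31%. Angptl4 was higher in KO than in WT mice without UV (3.22 against 1.60 cpm, log2 difference 0.98, adjusted P = 0.0233) and Mt1, a metallothionein, after UV (36.0 against 22.7 cpm, 0.65, adjusted P = 0.00692). Neither passed without the 9 muscle-rich mice (adjusted P = 0.21 and 0.1). Angptl4 also lost its call with Control mice alone (adjusted P = 0.208) and in 7 of 32 fits that left out 1 mouse. Mt1 lost its call with UV mice alone (adjusted P = 0.0978). The part of Ppard loss itself in these genotype differences was not tested, and neither was that of DNA inherited together with the altered gene. Without UV, Pdk4 (1.57), Cebpd (0.69) and Cebpb (0.38) were higher and Per1 (-0.68) and Anxa1 (-0.30) lower in females, and Cebpd was also higher after UV (0.69, adjusted P = 0.0181; 0.0539 without 54F). Of these sex differences, the one of Cebpd without UV alone passed without the muscle-rich mice (adjusted P = 0.0317).

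The partners of the receptors shifted in both directions. Of 10 receptor chaperones, 6 rose and 4 fell in WT mice, and 6 rose and 2 fell in KO mice. The shares of all genes were 34.5% and 36.5% in WT mice, and 37.3% and 33.5% in KO mice. Hsp90aa1, the inducible heat shock protein 90, rose from 31.96 ± 6.06 to 255 ± 60.01 cpm in WT mice (log2 fold change 2.998, adjusted P = 2.12e-14), Hspa8 by 0.85 and Ppid, an immunophilin, by 0.79. Of 13 nuclear receptor coregulators, 1 rose and 7 fell in WT mice, and 1 rose and 8 fell in KO mice. Ncoa3 (-1.15) and Ncoa2 (-1.03), both p160 coactivators, fell, and Nrip1, a corepressor of ligand-bound receptors, rose by 0.58 in WT mice.

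Among genes that convert sex steroids, 18 of 20 symbols were matched and 13 tested. In WT mice 3 rose and 5 fell, and in KO mice 5 rose and 5 fell. Akr1c18 (1.97) and the sulfotransferase Sult2b1 (1.08) rose, and Hsd17b4 (-1.10), the steroid reductase gene Srd5a1 (-0.99) and Hsd17b10 (-0.65) fell in WT mice. Hsd17b11 was higher in KO than in WT mice after UV (0.92, adjusted P = 0.0447; 0.145 without 54F). This call ended in 23 of 32 fits that left out 1 mouse. It also ended with limma (adjusted P = 0.0792), with no filter (0.089), with UV mice alone (0.163) and without the 9 muscle-rich mice (0.172).

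Oestrogen receptor targets, 12 of 14 tested, gave 3 rises and 6 falls in WT mice and 4 and 4 in KO mice. Without 54F only 9 of them were tested, with 3 rises and 5 falls in WT mice. Areg, an EGFR ligand (3.99), Ccnd1, cyclin D1 (1.55), and the lysosomal protease gene Ctsd (0.58) rose, and Myb (-3.16), the survival gene Bcl2 (-2.77) and Igfbp4 (-1.65) fell in WT mice. Areg was higher in KO than in WT mice without UV (10.3 against 6.29 cpm, log2 difference 0.72, adjusted P = 0.0233), and its rise was smaller in KO mice (interaction -0.95, adjusted P = 0.0193). Both calls ended without the 9 muscle-rich mice (adjusted P = 0.169 and 0.0876), and the first also in 7 of 32 fits that left out 1 mouse.

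Several target differences lost their call without mouse 54F, and some of these also without other single mice. After UV, Igfbp4 (2.06, adjusted P = 0.0142) and Bcl2 (0.49, adjusted P = 0.0496) were higher in KO mice, with adjusted P = 0.0522 and 0.113 without 54F. Of 32 fits that left out 1 mouse, 24 ended the call of Bcl2 and 1 that of Igfbp4. The call of Bcl2 also ended with limma (adjusted P = 0.0708), DESeq2 (0.0516) and RLE scaling (0.0531). Without the 9 muscle-rich mice neither gene passed (adjusted P = 0.196 for Igfbp4 and 0.267 for Bcl2). After UV, Igfbp4 (1.61), Cxcl12 (2.40), Ccn5 (5.25) and Rara (0.41) were higher in females. Without 54F, Igfbp4 and Cxcl12 lost the call (adjusted P = 0.26 and 0.332), Ccn5 fell under the filter on low values, and Rara kept it (adjusted P = 0.0468). Over the 32 fits that left out 1 mouse, Igfbp4 lost the call in 16, Cxcl12 in 23, and Ccn5 in 4 of the 31 that tested it. Rara lost its call without the 9 muscle-rich mice (0.16, adjusted P = 0.42), with no filter (adjusted P = 0.0513) and without 59F (adjusted P = 0.0579). Without UV, Areg (-0.57) and Xbp1 (-0.27) were lower in females, and both calls ended without the muscle-rich mice (adjusted P = 0.147 and 0.0743) and with no filter (0.0559 and 0.117). The call of Areg also ended without 61F (0.0578), and that of Xbp1 with filterByExpr (0.0616) and in 9 of 32 fits that left out 1 mouse.

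Genes of mineralocorticoid-linked sodium transport, all 10 tested, gave 1 rise and 4 falls in WT mice and 1 and 3 in KO mice. Lcn2 rose (2.44), and Scnn1g, a subunit of the epithelial sodium channel, fell (-1.50) in WT mice. Without UV, Atp1b1, a sodium pump subunit, was higher in females (0.71, adjusted P = 0.0012) and the channel subunit gene Scnn1a lower (-0.49, adjusted P = 0.037). Neither passed without the 9 muscle-rich mice (adjusted P = 0.0546 and 0.0764), and Scnn1a also lost its call with no filter (0.104), with filterByExpr (0.0663) and in 13 of 32 fits that left out 1 mouse. After UV, Scnn1b was lower in females (-0.98, adjusted P = 0.0381; 0.09 without 54F). Its call ended in 7 of 32 fits that left out 1 mouse, and without the 9 muscle-rich mice (adjusted P = 0.148).

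Across the 32 mice, the genes whose log2 cpm followed the members most closely were, for Tsc22d3, Ulk2, Arl6ip5 and Gpr146 (Pearson r 0.97, 0.96 and 0.96), and for Esr1, Arhgef6, Adam22 and Fads1 (0.93, 0.91 and 0.90). For Esr2 they were Lgals12, Cat and Pknox1 (0.83 each), for Hsd11b1 Kcnma1, Tcea3 and Rab12 (0.84, 0.82 and 0.82), and for Nr3c1 Rsbn1, Cpne3 and Mib1 (0.82, 0.79 and 0.78). The coefficients were taken among 14915 genes with at least 10 reads on average, over mice that shared the UV contrast, and are descriptions only.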

How the data were processed

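RNA from the epidermis of 32 mice was sequenced by the study with a stranded mRNA library kit, and RNA quality numbers of 6.4 to 8.4 were given in the labels, which differs from the range in the study's methods. The submitters' notes name bcl2fastq, cutadapt 1.8, STAR 2.5.3a, HTSeq 0.9.1 and build GRCm38. The study's methods name a GRCh38 release, a human build, in place of GRCm38; of the 55401 deposited gene identifiers, 55141 were in the mouse annotation GENCODE M21. The strand setting of the counting was not given in the sources used here. The deposited values are raw read counts per gene identifier, with neither normalization nor filter by the authors after removal of adapters, ribosomal RNA reads and low-complexity reads. Rows that name no gene were left out, and uniquely aligned reads outside any gene made up 6.80 to 9.75% of uniquely aligned reads. Symbols and positions came from GENCODE M21 (GRCm38), and promoter sequences from RefSeq (GRCm38.p6).

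A gene entered the fit when any mouse reached 1 cpm (15546 genes). Counts were scaled by TMM and fitted with 8 group means over all 32 mice in edgeR 4.0.16 (glmQLFit and glmQLFTest, R 4.3.3). P values were two-sided and adjusted by Benjamini-Hochberg over all genes of a contrast. A contrast over both sexes averaged male and female effects. limma 3.58.1 and DESeq2 1.42.0 were alternatives, beside RLE scaling, no filter, the filterByExpr filter, Control or UV mice alone, leaving out each mouse leaving out 9 muscle-rich mice and, for sex, a block on mouse number. The fit was tested on simulated data. Intervals cover 95%, and counts without molecular identifiers carry more than counting error. Each mouse is a separate animal.

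The members and gene lists were chosen with earlier results of these data known. Named list genes were the 3 largest rises and 3 largest falls of each list in WT mice among called genes with at least 10 reads on average and no overlap between UV and Control, plus any list gene called in a genotype, interaction or sex contrast. Some genes that this rule names are not reported here. The symbols Hsd17b8 and Sts had no match. Likeness used log2 cpm with a prior count of 1.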

Additional observations from a re-analysis of the deposited data

Results flagged for a closer look

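In 8 of the 55 sets of 4 mice examined, 1 mouse lay far from the other 3, by Dixon's test at its 95% critical value. For normally distributed values that test flags about 1 in 20 sets. Where 3 mice of a set had no reads, any read in the remaining mouse flagged the set. The 8 of 55 can therefore not be set against that rate. Mouse 54F, a KO female after UV, stood apart with 17.7 cpm of Esr1 (others 0.334 to 1.12 cpm) and 0.522 cpm of Esr2 (others 0.0389 to 0.0984 cpm), and it also held 2035 cpm of dermal fibroblast markers. Mouse 44F, a KO female Control, stood apart with 1.69 cpm of Esr2. Mouse 38M, a WT male after UV, stood apart with 0.509 cpm of Nr3c2 and 0.945 cpm of Hsd11b1, and mouse 59F, a WT female after UV, with 0.307 cpm of Nr3c2 where the other 3 had none. The mice 54F, 44F, 38M and 59F all had over 1000 cpm of skeletal muscle markers, and the part of these markers in the values was not tested. Hsd11b2 was read in just 1 mouse of its set in the KO Control male 34M (0.0400 cpm) and the KO UV male 72M (0.0738 cpm), from 1 and 2 reads.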

How the results depend on the processing

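Each number shared by mice named 1 female and 1 male. The sides of the UV and genotype comparisons shared 1 number each, too few to pair. Those of the sex comparisons shared 2, but no same-numbered mice deviated together (correlations of -0.191 to 0.099 over 8 numbers). With limma and the mouse number as a replicate block, added after seeing the data, 1031 genes differed between sexes without UV and 341 after it, against 1051 and 374 with limma alone, and Tsc22d3 after UV was 0.87 (adjusted P = 0.0255). Of 1887 alternative values for members, 1817 kept their direction and side of the threshold, as did 3628 of 3915 for listed genes, and 863 of 948 counts stayed within 1.5 times; for the others the cause was not tested. The alternative without the 9 muscle-rich mice was chosen after seeing the data, and it also leaves fewer mice.

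Members called after UV in KO mice numbered 4 with limma and 4 without the muscle-rich mice (leaving out 1 mouse, 2 to 4). After UV, the genotype call covered 2 members with DESeq2 (0 to 1), the genotype-by-UV interaction 1 with DESeq2 (0 to 1), and the sex call 0 without the muscle-rich mice (0 to 1). In WT males 2 to 4 and in KO females 0 to 3 members fell.

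Genes called between genotypes without UV were 78 with DESeq2, 15 with Control mice alone and 18 without the muscle-rich mice (20 to 45). After UV they were 260 with limma, 1116 with DESeq2, 263 with no filter, 40 with UV mice alone and 26 without the muscle-rich mice (133 to 983). The interaction gave 841 with DESeq2, 55 with no filter and 30 without the muscle-rich mice (56 to 346). The sex-by-UV interaction gave 2 with limma and 22 with DESeq2 (0 to 1). Between sexes the counts were 1676 with DESeq2, 327 with no filter, 653 with filterByExpr and 226 without the muscle-rich mice before UV (464 to 1753), and 1196, 239 and 26 with DESeq2, no filter and without those mice after UV (117 to 1043).

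Directions that turned were of changes that did not pass the test. With limma they were Nr3c2 after UV in KO mice (-0.45), Hsd11b1 between genotypes without UV (0.0559) and Esr2 in the sex-by-UV interaction (-0.16). Without the muscle-rich mice they were Hsd11b1 between genotypes without UV (0.0752), Esr2 (-0.0327) and Hsd11b1 (0.53) in the sex-by-UV interaction, Nr3c1 between sexes after UV (-0.0219) and Igfbp4 after UV in KO mice (-0.13). With filterByExpr, Nr3c1 between sexes after UV was -0.0012. Leaving out 1 mouse gave, after UV in KO mice, -0.51 to 0.40 for Nr3c2 and -0.24 to 0.90 for Igfbp4, and between genotypes without UV -0.65 to 0.0038 for Esr2, -0.32 to 0.25 for Nr3c2 and -0.22 to 0.20 for Hsd11b1. It gave -0.067 to 0.0131 for Nr3c1 between genotypes after UV, and -0.32 to 0.63 for Esr2, -2.69 to 0.49 for Nr3c2 and -0.54 to 0.30 for Hsd11b1 in the sex-by-UV interaction. Between sexes it gave -0.13 to 0.27 for Esr1 without UV, and -0.0278 to 0.0636 for Nr3c1, -1.37 to 1.81 for Nr3c2 and -0.15 to 0.69 for Hsd11b1 after UV. Depth limits Hsd11b2, Nr3c2, Esr2 and Hsd11b1, whose reads per mouse were few.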
